A study of Homo sapiens with 9 samples.

Results

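The transcripts described here are those of 44 genes for nucleolar ribosome biogenesis factors, out of the 61544 genes counted. They form a hand-written list, drawn up with earlier results of these data known, and each was matched by its symbol to a single Ensembl gene. H1975 cells, a human lung adenocarcinoma line, all received si78 for 24 h, an siRNA against the 3′UTR of the transcript of GRP78, the ER chaperone encoded by HSPA5. They were then transfected for 48 h with pcDNA3 (vector), with FLAG-tagged GRP78, F-78(WT), or with F-78(NLS Mut), in which alanines replace lysines of the nuclear localization signal (WT and NLS Mut below). The 3 groups had 3 RNA-Seq libraries each, with none analysed here from cells that did not receive si78. The vector group is thus itself a control treated with si78, and nothing in the labels ties the libraries of a group to separate cultures, so p-values measure the spread between these libraries, which may be technical.

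Ribosomes are built in the nucleolus, where RNA polymerase I transcribes the precursor of the large ribosomal RNAs. Small nucleolar ribonucleoproteins (snoRNPs) guide the methylation (box C/D) and pseudouridylation (box H/ACA) of this precursor, and a long series of assembly factors, helicases and nucleases folds and cuts it while the small and the large subunit take shape. Many genes of the pathway are known targets of MYC, a transcription factor that binds, with its partner MAX, to the E-box motif CACGTG.

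Each library had 17671055 to 27476298 reads counted on genes, and levels are given as CPM (counts scaled to a library of 1000000 reads) on a common scale set by TMM normalization. HSPA5 was at 359, 383 and 391 CPM in the vector libraries, at 5031, 5814 and 6145 CPM with WT, and at 4962, 5156 and 4765 CPM with NLS Mut, in the order of the labels. The transfected groups therefore stood far above vector, and their log2 difference of 0.19 (with a standard error, SE, of 0.05) did not pass the test (adjusted p = 0.079, edgeR's quasi-likelihood test). All 12 epithelial and lung adenocarcinoma markers had a mean of at least 1 CPM, with sums of 5180 to 5991 CPM. The sums of 5 hematopoietic, 4 endothelial and 5 fibroblast markers stayed at or under 11.8 CPM. Among these, 2 hematopoietic, 2 endothelial and 1 fibroblast marker also had a mean of at least 1 CPM. CD3E, LYZ and DCN were at 0 in all libraries. The epithelial sum was 5589 to 5710 CPM with WT and 5180 to 5377 CPM with NLS Mut, with vector at 5290 to 5991 CPM, and its part in the results was not tested. Vector replicate 1 stood apart from the other vector libraries in its dependence on GC content, with a log2 slope of -0.04 per 10 percentage points of GC against 0.10 and 0.11.

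All 44 factors passed the filter on low counts. Per length, their median level was 20.3 CPM per kb of exon, above 87.6% of the tested genes with a known length, and 41 of the 44 lay above the median of those genes, 3.44 CPM per kb. The highest levels were those of NPM1, the histone chaperone nucleophosmin, at 229 CPM per kb, and NCL, the RNA-binding protein nucleolin, at 123 CPM per kb. The lowest were those of RCL1, a factor of 18S rRNA processing, at 2.98 CPM per kb and NOP2, a methyltransferase of the 28S rRNA, at 0.105 CPM per kb. NOP2 had only 4 to 20 reads per library, and 54.4% of its exonic bases are shared with another annotated gene on the same strand. Reads on more than 1 gene are left out of such counts, so the NOP2 value says little about that transcript. PPAN, a large subunit factor, shares 59.8% of its exonic bases with neighbouring genes in the same way and was counted at 5.11 to 9.63 CPM. In all, 25 of the 44 factors share some exonic bases with another gene, in part on the opposite strand. Reads on such bases are left out of these unstranded counts as well. The spread among replicates was small, with a median biological coefficient of variation of 6.29% over the factors, against 11.2% over all tested genes. The part of the factors' higher level in this difference was not tested.

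Because many of these genes are described as MYC targets, the E-box letters CACGTG, which read the same on both strands, were sought in RefSeq promoter windows (GRCh38.p14, 250 bases before to 50 bases after each start site). Windows were found for 37 factors, and not for RRS1, BOP1, RRP12, NOLC1, DDX18, RRP1B and NOP58. The motif stood in 16 of the 37 factors, 43.2%, compared with 12% of the tested genes that had windows and 27.4% of 117 other ribosome biogenesis genes. The list was described as holding many MYC targets when it was drawn up, so this share cannot be read apart from the choice of genes. By window, the motif stood in 17 of 47, 36.2%, against 9.03% of 17350 windows of tested genes and 7.26% of all 35116 windows. Of the 18 motif positions in the factors, 15 began within 50 bases of the start site, or 83.3%, against 38% in the windows of tested genes. A position in overlapping windows was counted once for the factors but once per window for the tested genes. Most positions in the other ribosome biogenesis genes also began within 50 bases of the start site. The sites below are those of factors with the motif whose WT libraries all lay below all NLS Mut libraries. Each is shown 5′ to 3′ on the gene's strand over 30 bases with the motif in capitals, and the position is that of its first base relative to the start site.
RRP9, chr3:51941892-51941921, minus strand, position -5: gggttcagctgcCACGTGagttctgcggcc
UTP20, chr12:101280083-101280112, plus strand, position -10: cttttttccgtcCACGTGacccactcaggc
NAT10, chr11:34105602-34105631, plus strand, position -15: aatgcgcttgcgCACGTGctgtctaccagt
DDX21, chr10:68956604-68956633, plus strand, position -31: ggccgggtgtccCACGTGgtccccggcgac
GNL3, chr3:52686026-52686055, plus strand, position 7: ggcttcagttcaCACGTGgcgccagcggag
PES1, chr22:30591880-30591909, minus strand, position 14: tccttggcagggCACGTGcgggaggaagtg
GAR1, chr4:109815781-109815810, plus strand, position 32: gggccagaggggCACGTGgcgccggtgagt
IMP4, chr2:130342682-130342711, plus strand, position -203: gcggtcctaagtCACGTGtgacattctgta
IMP4, chr2:130342900-130342929, plus strand, position 16: ttctcccggaccCACGTGgaagcggcactc
The flanking bases vary, although GNL3 and GAR1 share gcgcc right after the motif. Only the motif is common to all 9 sites. A match is a description of the letters and not a site of binding, and factors without a match in these windows, DKC1 among them, may carry the motif elsewhere.

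**Figure D1:**
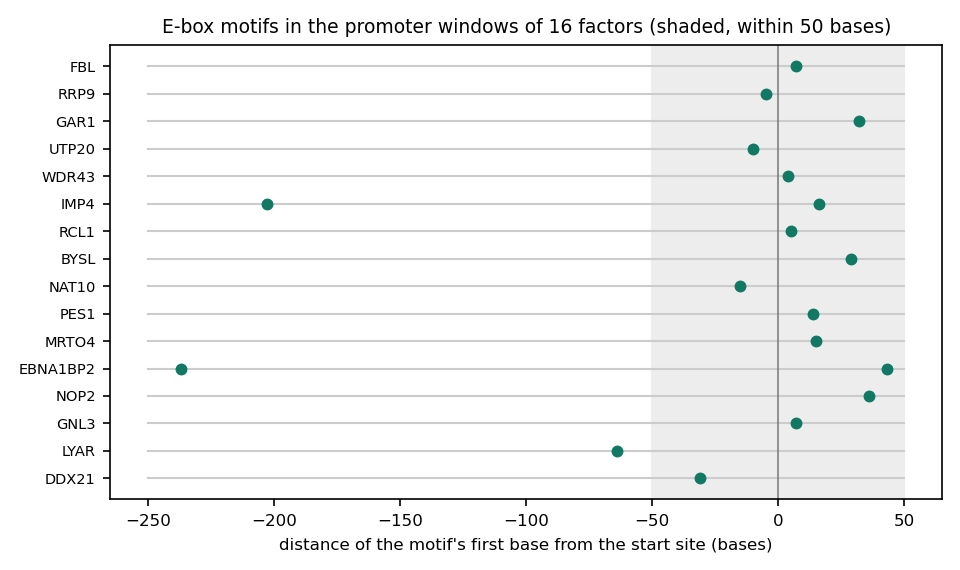
Positions of the E-box motif CACGTG in the promoter windows of the 16 factors that have it, 1 row per gene, with the distance of the motif's first base from the start site in bases on the x axis. Of the 18 positions, 15 lie in the shaded range within 50 bases of the start, and the 3 others, in IMP4, EBNA1BP2 and LYAR, lie further upstream.

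The first comparison set WT against NLS Mut, which differ in the lysines of the signal. Nearly all factors had lower transcript levels with WT, and RRP9 and DKC1 passed the test on their own. The log2 fold change was negative in 42 of 44 factors (95.5%), against 51.1% of all tested genes, and its median was -0.18, a change of -11.4%, against -0.01 over all tested genes. In 26 factors (59.1%) every WT library lay below every NLS Mut library, as it did in 9.42% of all tested genes, and in 0 factors did every WT library lie above, against 8.25%. By edgeR's quasi-likelihood test adjusted over 18653 genes, 2 factors fell, where 0.204% of all tested genes did, and 0 rose, against 0.3%. At an unadjusted p under 0.05 the test gave 26 factors lower (6% of all tested genes) and 0 higher (5.55% of all). The shares over all tested genes, here and below, were not matched to the factors for level or spread. In bulk RNA, less transcript per cell and fewer cells with the transcript cannot be told apart.

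**Figure D2:**
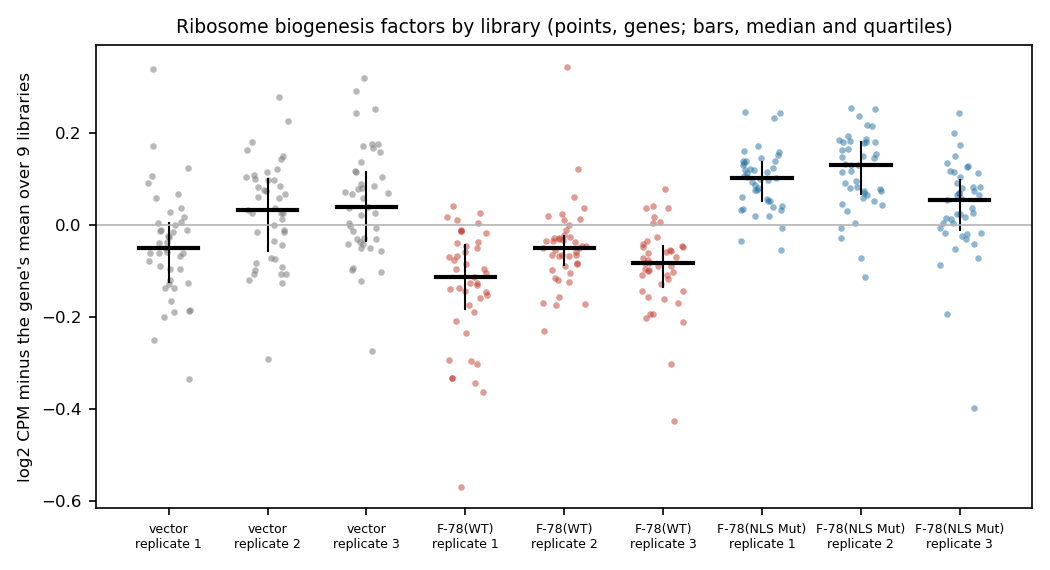
Log2 CPM of each factor minus its own mean over the 9 libraries, 1 point per gene and 1 column per library, with bars at the median and lines from the first to the third quartile, for 43 factors (NOP2 is left out because of its few reads). The WT libraries lie below 0 in the median and the NLS Mut libraries above it, with vector replicate 1 lower than the other vector libraries.

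The shift was seen in each library. Over the 44 factors, the median log2 deviation from the mean of the 9 libraries was -0.11, -0.05 and -0.09 in the WT libraries and 0.10, 0.12 and 0.05 in the NLS Mut libraries. In vector it was -0.04, 0.03 and 0.04. The WT and NLS Mut libraries thus did not overlap, and vector lay between them, with vector replicate 1 just above WT replicate 2. Over all tested genes the same median stayed between 0.00 and 0.02 in every library. MYC itself was at 603, 719.5 and 749 CPM in vector, at 431, 537 and 502 CPM with WT, and at 714, 731 and 678 CPM with NLS Mut. All WT libraries were the lowest for MYC, with log2 fold changes of -0.53 against NLS Mut (SE 0.07, adjusted p = 9.5e-05, edgeR) and -0.49 against vector (adjusted p = 0.00024, edgeR), whereas NLS Mut against vector gave 0.04 (adjusted p = 0.90, edgeR). Whether the level of MYC has a part in the values of the factors was not tested. Among the 37 factors with promoter windows, 16 had the E-box and 21 did not. Their median log2 fold changes between WT and NLS Mut were -0.18 and -0.16. The groups did not overlap, with WT lower, in 8 and 13 of them, against 9.42% of all tested genes.

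RNA polymerase I was represented by 3 subunits, all with negative log2 fold changes between -0.20 and -0.16, and none passed the test. POLR1C, which RNA polymerases I and III share, was at 31.1, 20.1 and 24.95 CPM in vector, 21.8, 23.5 and 22.9 CPM with WT, and 26.3, 23.4 and 29.1 CPM with NLS Mut. Its groups overlapped, and its log2 fold change of -0.20 (SE 0.13) had an adjusted p of 0.58 in edgeR. The catalytic subunit POLR1A and the second largest subunit POLR1B did not overlap between the F-78 groups, at 169 to 180.2 against 191 to 199.5 CPM and at 76.7 to 86.2 against 89.0 to 94.9 CPM.

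The 4 box C/D snoRNP proteins had a median log2 fold change of -0.17. RRP9, a protein specific to the U3 snoRNP, which is needed for the first cuts towards 18S rRNA, lies on chromosome 3 from 51933430 to 51941941 on the minus strand (GRCh38, GENCODE 29). It was at 55.2, 63.7 and 60.9 CPM in vector, at 46.7, 51.1 and 52.2 CPM with WT, and at 61.8, 67.9 and 62.5 CPM with NLS Mut. The WT libraries were below all 6 others. RRP9 fell by 0.36 on the log2 scale between NLS Mut and WT (SE 0.08, adjusted p = 0.036, edgeR's quasi-likelihood test), from 64.1 ± 3.34 to 49.99 ± 2.90 CPM (SD, n = 3). FBL, the methyltransferase fibrillarin, had a log2 fold change of -0.19 with overlapping groups, and the core proteins NOP56 and NOP58 had -0.16 and -0.08 without overlap.

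All 4 box H/ACA proteins were without overlap between WT and NLS Mut, with WT lower, as were 9.42% of all tested genes. Their median log2 fold change was -0.23. DKC1, the pseudouridine synthase dyskerin, lies on chromosome X from 154762742 to 154777689 on the plus strand. It was at 219, 215 and 238 CPM in vector, at 208, 218 and 203 CPM with WT, and at 248, 253 and 245 CPM with NLS Mut. The NLS Mut libraries were above all others, and vector and WT overlapped. DKC1 fell by 0.24 on the log2 scale between NLS Mut and WT (SE 0.06, adjusted p = 0.047, edgeR), from 249 ± 3.69 to 209.9 ± 7.69 CPM (SD, n = 3). NOLC1, a chaperone of snoRNPs, was at 346, 369.7 and 372 CPM in vector, 329, 347 and 338 CPM with WT, and 396, 410.4 and 367 CPM with NLS Mut. NOLC1 did not pass the test at a log2 fold change of -0.21 (SE 0.06, adjusted p = 0.070, edgeR). NHP2, a core protein of the same particles, had the largest difference of the group by size, -0.30 (SE 0.11, adjusted p = 0.27, edgeR), on 24.1, 30.2 and 27.8 CPM with WT, 34.0, 32.0 and 35.0 CPM with NLS Mut, and 27.7, 32.9 and 37.9 CPM in vector. The core protein GAR1 had -0.15.

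**Figure D3:**
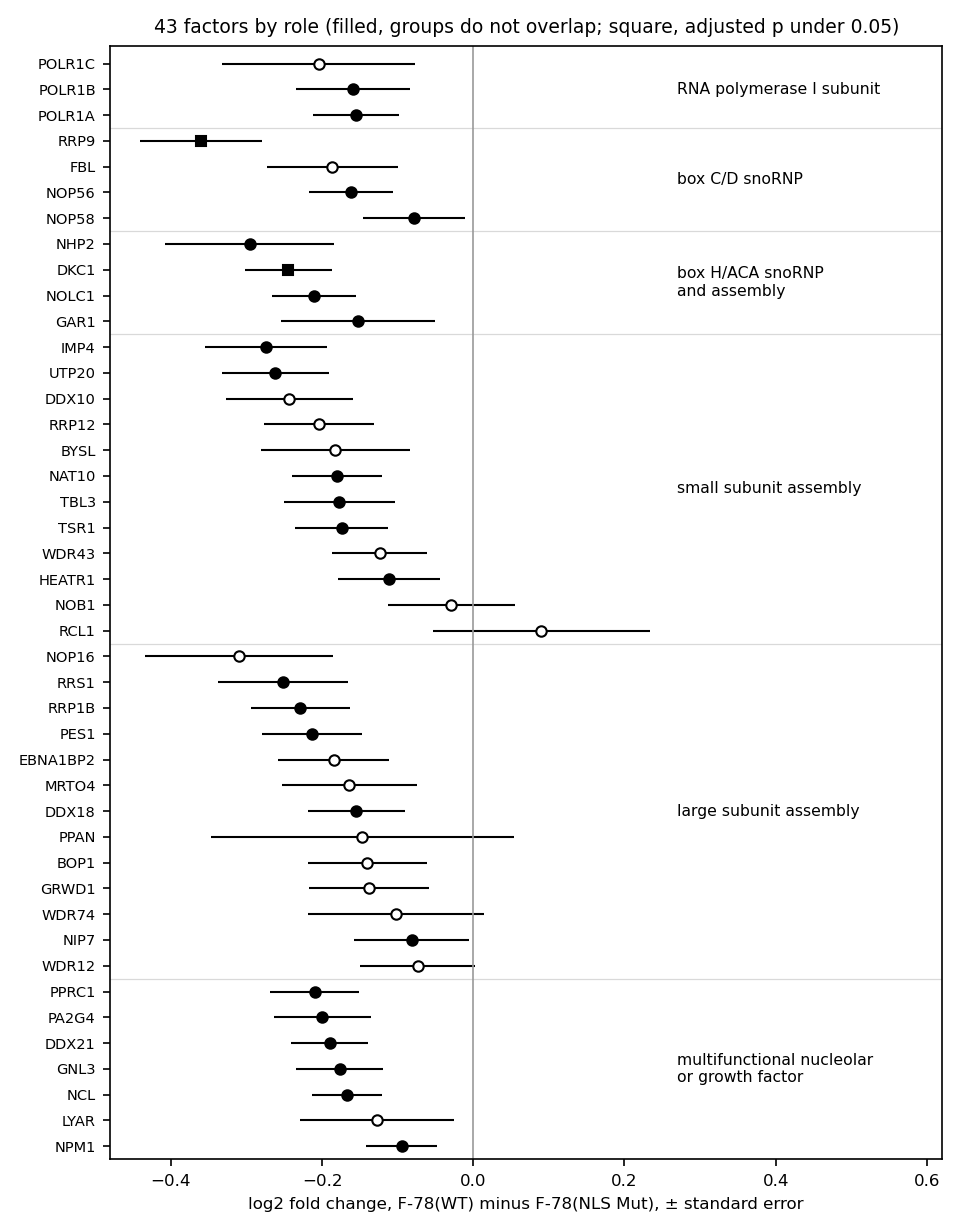
Log2 fold change between WT and NLS Mut of 43 factors (without NOP2) with its standard error, 1 row per gene, grouped by role. Squares mark RRP9 and DKC1, with an adjusted p under 0.05, filled symbols mark the 26 factors whose groups do not overlap, and RCL1 is the only factor plotted to the right of 0.

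Of the 12 small subunit factors, 11 had negative log2 fold changes, with a median of -0.18. In 6 the F-78 groups did not overlap, with WT lower, against 9.42% of all tested genes. None passed the test. IMP4, a partner of the U3 snoRNP, had the largest difference, -0.27 (SE 0.08, adjusted p = 0.12, edgeR). It was at 64.6, 74.7 and 66.5 CPM with WT and 84.6, 88.4 and 75.8 CPM with NLS Mut, with vector at 73.1, 75.3 and 85.7 CPM. UTP20, a large scaffold protein of the small subunit processome, was at 73.7, 68.3 and 74.96 CPM with WT, 84.6, 87.3 and 88.3 CPM with NLS Mut and 76.3, 70.7 and 70.6 CPM in vector. Its NLS Mut libraries stood above all 6 others, which overlapped, and its log2 fold change of -0.26 (SE 0.07) had an adjusted p of 0.081 in edgeR. NAT10, the acetyltransferase of 18S rRNA, and TSR1, a late maturation factor, had -0.18 and -0.17, also without overlap. NOB1, the nuclease that makes the 3′ end of 18S rRNA, was close to 0 at -0.03, with overlapping groups. RCL1 was at 0.09 (SE 0.14), with 12.2, 12.1 and 13.2 CPM with WT, 14.1, 11.5 and 9.47 CPM with NLS Mut and 14.04, 13.1 and 13.4 CPM in vector.

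Of the 14 large subunit factors, 13 had negative log2 fold changes, with a median of -0.15. In 5 the groups did not overlap, with WT lower, against 9.42% of all tested genes. None passed the test. The 3 proteins of the PeBoW complex, which processes the precursor of 28S and 5.8S rRNA, had log2 fold changes of -0.21 (PES1), -0.14 (BOP1) and -0.07 (WDR12), and only PES1 was without overlap. RRP1B, a nucleolar protein of rRNA processing, had -0.23 (SE 0.07, adjusted p = 0.11, edgeR) and RRS1, which helps to bring the 5S RNP to the precursor, had -0.25 (SE 0.09, adjusted p = 0.20, edgeR), both without overlap. The largest negative value was that of NOP16, at -0.31 (SE 0.12, adjusted p = 0.30, edgeR), with overlapping groups. The largest of all in size was that of NOP2, at 1.15 with a standard error of 0.74 (adjusted p = 0.60, edgeR). NOP2 was at 0.739, 0.687 and 0.444 CPM in vector, 0.723, 0.770 and 0.289 CPM with WT and 0.210, 0.353 and 0.227 CPM with NLS Mut, so that it rests on a handful of reads.

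Of the 7 multifunctional factors, all had negative log2 fold changes, with a median of -0.18. LYAR was the exception to the 6 without overlap, against 9.42% of all tested genes without overlap and lower with WT. None passed the test. PPRC1, a transcription coactivator related to PGC-1 and no assembly factor itself, had the largest difference, -0.21 (SE 0.06, adjusted p = 0.098, edgeR). It was at 152, 157 and 150.4 CPM in vector, 139.8, 145 and 145 CPM with WT and 164, 162 and 170.4 CPM with NLS Mut, 3 ranges that did not overlap. NCL was at 806, 844 and 846 CPM in vector, 811, 803 and 822 CPM with WT and 882, 932 and 922 CPM with NLS Mut, with a log2 fold change of -0.17 between the F-78 groups (SE 0.05, adjusted p = 0.092, edgeR). NPM1 was at 806, 855 and 847 CPM, 869, 855.5 and 880.5 CPM, and 896, 969 and 917 CPM in the same order, with -0.09 (SE 0.05, adjusted p = 0.44, edgeR). For both genes the NLS Mut libraries were the highest. NPM1 has many pseudogenes that share sequence with it, and 49 of them together held 22.3 to 29.6 CPM. That sum does not measure how many reads the count of NPM1 lacks because of shared sequence.

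**Figure D4:**
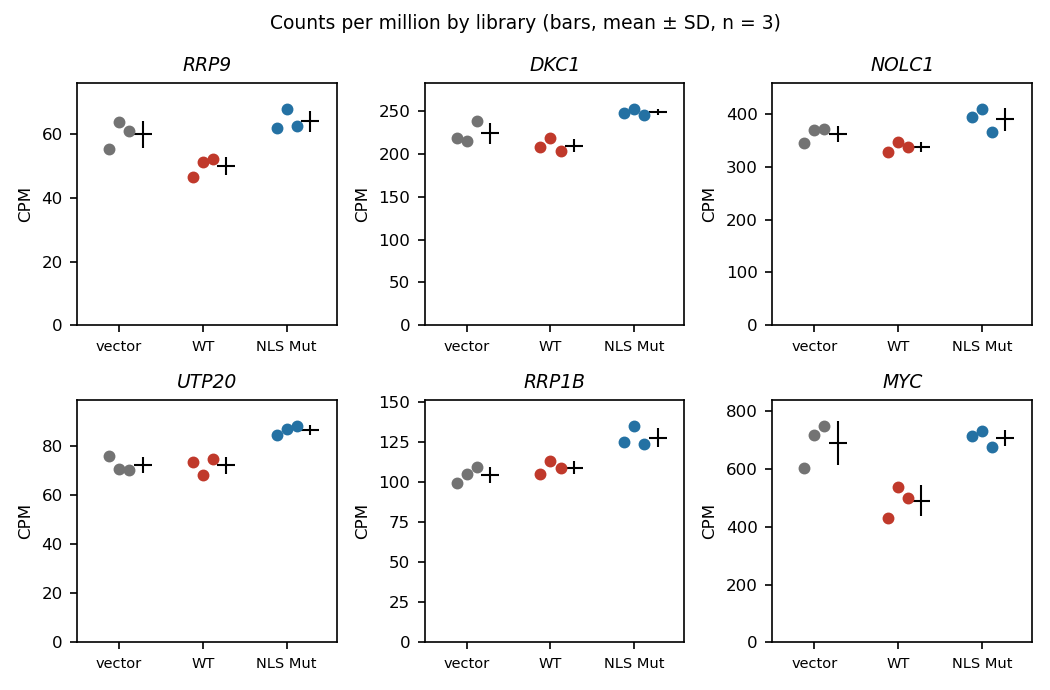
CPM of RRP9, DKC1, NOLC1, UTP20, RRP1B and MYC in each library on linear axes from 0, with the mean ± SD (n = 3) of each group at its right. RRP9 and MYC are lowest in the WT libraries, whereas UTP20 and RRP1B are highest in the NLS Mut libraries, with WT near vector.

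The comparison of WT with vector sets cells given GRP78 back after si78 against cells that were not. Most values were slightly lower with WT, and no factor passed the test. The log2 fold change was negative in 38 of 44 factors (86.4%), against 50.5% of all tested genes, with a median of -0.10, a change of -6.5%. Every WT library lay below every vector library in 7 factors (15.9%; 6.54% of all tested genes), namely RRP9, GAR1, TBL3, TSR1, NAT10, RRS1 and PPRC1, and above in 1, NPM1 (2.27%; 6.53% of all). By edgeR's quasi-likelihood test 0 factors were called lower, against 0.343% of all tested genes, and 0 higher, against 0.214%. DESeq2 called 0 as well, against 0.692% lower and 0.713% higher over all tested genes. At an unadjusted p under 0.05 edgeR gave 11 factors lower (25%; 6.52% of all tested genes) and 0 higher (5.19% of all).

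The 3 factors with the smallest p in this comparison were TBL3, RRP9 and RRS1. TBL3, a WD-repeat protein of the small subunit processome, was at 95.4, 107 and 108 CPM in vector, 78.5, 93.2 and 90.9 CPM with WT and 97.5, 102 and 97.8 CPM with NLS Mut. Against vector the log2 fold change was -0.24 (SE 0.07, adjusted p = 0.14, edgeR), and 29.9% of its exonic bases are covered by a gene on the opposite strand. RRS1 was at 56.4, 66.6 and 66.4 CPM in vector, 46.7, 54.9 and 55.0 CPM with WT and 64.7, 63.7 and 58.0 CPM with NLS Mut. The WT libraries were the lowest, at a log2 fold change of -0.27 against vector (SE 0.09, adjusted p = 0.16, edgeR). For RRP9 it was -0.26 (SE 0.08, adjusted p = 0.15, edgeR).

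This comparison depended on vector replicate 1. Without it, edgeR called 6 factors lower with WT, RRP9, NHP2, TBL3, PES1, RRS1 and EBNA1BP2, against 3.68% of all tested genes, and 1 higher, HEATR1, against 2.65%. The groups were then without overlap in 23 lower factors (17.3% of all tested genes). With offsets for GC content and length the median over the factors was -0.06. In that fit 0 factors were called, against 0.343% of all tested genes lower and 0.729% higher. The 22 factors with GC content above the factors' median of 50.7% had a median log2 fold change of -0.12 and the 22 below it of -0.04. Between WT and NLS Mut the same sets had -0.18 and -0.16. The part of the GC dependence of the vector libraries in these values was not tested.

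The comparison of NLS Mut with vector does the same for the protein with the altered signal. Most values were slightly higher with NLS Mut, and RRP1B passed the test. The log2 fold change was positive in 35 of 44 factors (79.5%), against 49.7% of all tested genes, with a median of 0.07, a change of 5.33%. Every NLS Mut library lay above every vector library in 14 factors (31.8%; 9.28% of all tested genes) and below in 2, NOB1 and NOP2 (4.55%; 8.82% of all). In edgeR 1 factor rose, against 0.295% of all tested genes, and 0 fell, against 0.499%. At an unadjusted p under 0.05 there were 12 factors higher (27.3%; 6.13% of all tested genes) and 0 lower (6.03% of all). Both transfected groups are compared with the same vector libraries, so the values of these 2 comparisons are not independent.

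RRP1B lies on chromosome 21 from 43659548 to 43696079 on the plus strand. It was at 99.2, 105 and 109 CPM in vector, at 105, 113 and 109 CPM with WT, and at 125, 135 and 124 CPM with NLS Mut. The NLS Mut libraries were the highest, and the other groups overlapped. It rose by 0.29 on the log2 scale with NLS Mut against vector (SE 0.07, adjusted p = 0.026, edgeR), from 104 ± 5.01 to 128 ± 6.12 CPM (SD, n = 3), a change of 22.1%. UTP20 followed with 0.26 (SE 0.07, adjusted p = 0.083, edgeR), and HEATR1, a processome protein that also acts in RNA polymerase I transcription, with 0.23 (SE 0.07, adjusted p = 0.11, edgeR). HEATR1 was at 179, 163 and 145 CPM in vector, 178, 170.4 and 181 CPM with WT and 187, 200.3 and 185 CPM with NLS Mut, and 23.2% of its exonic bases are covered by a gene on the opposite strand. By role, the 7 multifunctional factors had the highest median against vector, 0.15, and the 14 large subunit factors the lowest, 0.04. In 6 of the 7 every NLS Mut library lay above every vector library, as in 9.28% of all tested genes. Here the factors with lower GC content had a median of 0.12 and the others of 0.06. With offsets for GC content and length the median over all 44 became 0.13 and 5 factors were called higher, BOP1, PES1, MRTO4, RRP1B and PPRC1, against 1.14% of all tested genes. Without vector replicate 1 the median was 0.04.

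**Figure D5:**
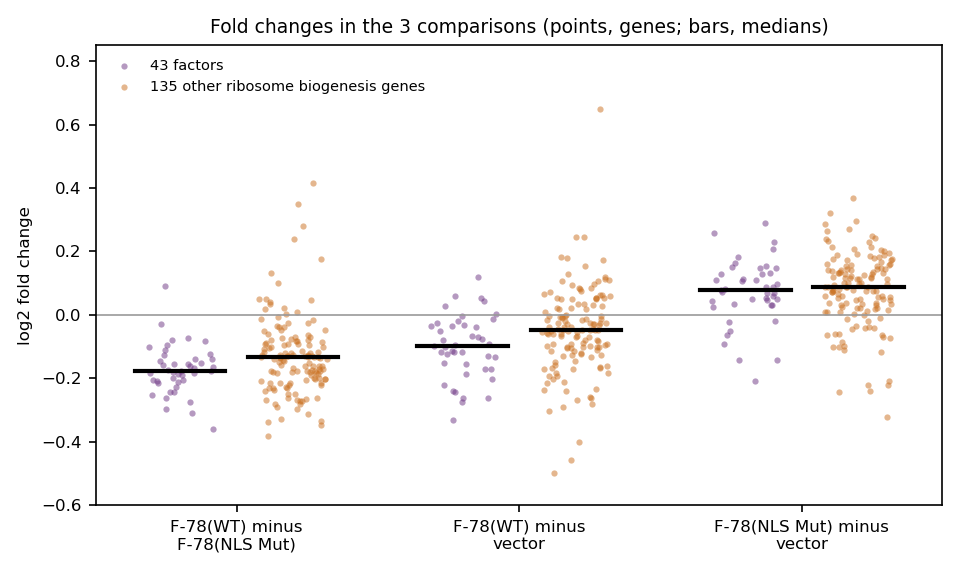
Log2 fold changes of 43 factors (without NOP2) and of 135 other ribosome biogenesis genes in the 3 comparisons, 1 point per gene, with bars at the medians. Between WT and NLS Mut both sets lie mostly below 0, with the factors at a median of -0.18 and the other genes at -0.13, and the 2 comparisons on the right share the vector libraries.

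The same pathway was read in 135 other genes of ribosome biogenesis, all of them tested, listed with earlier results of these data known. Between WT and NLS Mut 119 of them (88.1%) had a negative log2 fold change, against 51.1% of all tested genes, with a median of -0.13. In 54 (40%) the groups were without overlap with WT lower, against 9.42% of all tested genes. In edgeR 1 gene of the list fell, against 0.204% of all tested genes, and 0 rose, against 0.3%. It was TCOF1, treacle, a scaffold of RNA polymerase I transcription, at 149.7, 176 and 168 CPM in vector, 153, 156 and 162 CPM with WT and 185, 197 and 187 CPM with NLS Mut. The NLS Mut libraries were the highest, and TCOF1 fell by 0.27 on the log2 scale between NLS Mut and WT (SE 0.06, adjusted p = 0.047, edgeR). The call was lost with DESeq2 size factors, and with 1 library left out it held in 2 of 9 fits, those without vector replicate 1 or 3, with an adjusted p in edgeR of up to 0.28. By role the medians of this difference were -0.15 for 46 small subunit genes, -0.14 for 51 large subunit genes, -0.14 for 9 snoRNP genes, -0.12 for 16 genes of the exosome and rRNA trimming, and -0.08 for 13 genes of the RNA polymerase I machinery.

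Against vector the other genes had a median of -0.05 with WT, where 2 fell, against 0.343% of all tested genes, and 0 rose, against 0.214%. NOP10, a small core protein of the box H/ACA snoRNP, was at 43.9, 46.3 and 47.7 CPM in vector, 26.1, 37.5 and 36.9 CPM with WT and 43.3, 42.2 and 41.6 CPM with NLS Mut, a log2 fold change against vector of -0.46 (SE 0.10, adjusted p = 0.036, edgeR). NOL6, a small subunit factor, was at 112, 119.8 and 123 CPM, 97.6, 102 and 95.2 CPM, and 118, 115 and 113 CPM in the same order, at -0.27 (SE 0.06, adjusted p = 0.049, edgeR). For both, the WT libraries were below all 6 others. With 1 library left out, both calls held in 2 of 9 fits, those without vector replicate 1 or WT replicate 2. Both were lost in a fit of only the groups compared, and that of NOL6 also with DESeq2 size factors and with the offsets for GC content and length. With NLS Mut the median was 0.09, and edgeR called 0 genes of this list against vector. At an unadjusted p under 0.05, 23 were higher (17%; 6.13% of all tested genes) and 2 lower (1.48%; 6.03% of all). DESeq2 called 6 higher, against 1.16% of all tested genes.

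How many factors passed the test changed with the fit, while the median between the F-78 groups stayed between -0.19 and -0.16 in every fit. Between WT and NLS Mut the 2 factors lower in edgeR became 8 with DESeq2, among them NOLC1, UTP20, RRP1B, NCL, DDX21 and PPRC1, then 10 in a fit of only these groups and 15 with offsets for GC content and length. The share of all tested genes called lower was also larger in these fits, at 0.204% in edgeR against 0.724%, 0.793% and 1.23% in the same order. The 9 other fits that left out no single library include that of only the groups compared. RRP9 passed in all 9 and DKC1 in 8 of them. With 1 library left out, both passed in 3 of 9 fits. The count of factors ranged from 0 (without vector replicate 2, WT replicate 1 or 3, or any NLS Mut library) to 10. The 10 came without vector replicate 1, where 0.932% of all tested genes were called lower. RRP1B kept its call against vector in 4 of 9 such fits and lost it without vector replicate 2 or 3 or any NLS Mut library. The count of factors without overlap between the F-78 groups was 28 to 34 with 1 library of these groups left out, against 13.6% to 16.7% of all tested genes. The 9 factors whose genes hold nested small nucleolar RNAs had a median log2 fold change between the F-78 groups of -0.17, and the 35 other factors had -0.18.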

How the data were processed

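Transcripts of H1975 cells were sequenced in 9 libraries. For each, the authors deposited unnormalized counts of reads on genes in the layout of STAR, which their processing notes give as version 2.7.9a with DESeq2 1.36.0 and the build GRCh38.p14. The annotation release is not given in the sources used here. The unstranded counts were used (the first strand held 50.6% to 51.9% of reads), and the 4 summary lines, 27.6% to 30.7% of the reads, were left out. Positions, exonic lengths, GC content and overlaps came from GENCODE 29, which held 58298 of the 61544 identifiers. The authors' fold changes were not used.

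Counts were normalized by TMM and fitted with edgeR 4.0.16 (R 4.3.3) in 1 quasi-likelihood model of all 9 libraries over 18653 genes that passed filterByExpr. Standard errors were taken as the size of the log2 value over the root of the F statistic, and genes were called under a Benjamini-Hochberg adjusted p of 0.05. An exact permutation test of 3 against 3 cannot go below 0.10. The procedure was tested on simulated data, with changes in 200 genes between WT and NLS Mut. These changes were larger than most differences of the factors, and no GC trend was simulated. The simulation therefore does not cover calls on shifts as small as those seen here. Alternatives were DESeq2 1.42.0, its size factors, library size alone, other filters, only the groups compared, the replicate block, GC and length offsets (loess, span 0.3), a threshold of 0.10 and leaving out each library. The counts of groups without overlap under other settings, and the median without NOP2, were chosen after seeing the data.

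The factors, gene lists and the rule for named genes were chosen with earlier results of these data known. Values in every library are given for factors called in any comparison, the 3 with the smallest p where fewer than 3 were called, the 2 highest and 2 lowest per length, and the largest difference between the F-78 groups in each of the 6 roles. Of the other list, called genes are named. Other factors appear by their fold change or range. NOP16 and PPAN were named in detail after their values were seen.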

Additional observations from a re-analysis of the deposited data

Results flagged for a closer look

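The effects of WT and NLS Mut, each against vector, differed by the direct test in RRP9 (log2 difference -0.36, adjusted p = 0.036, edgeR's quasi-likelihood test), DKC1 (-0.24, adjusted p = 0.047, edgeR), TCOF1 (-0.27, adjusted p = 0.047, edgeR) and MYC (-0.53, adjusted p = 9.5e-05, edgeR). In TSR1, NAT10 and PPRC1 every WT library lay below and every NLS Mut library above all vector libraries. That order was found in 3 of 44 factors (6.82%) and in 36 of the 18653 tested genes (0.193%), and both comparisons share the vector libraries. The direct tests of these 3 factors did not pass the threshold, with log2 differences of -0.17 for TSR1 (adjusted p = 0.23, edgeR), -0.18 for NAT10 (adjusted p = 0.19, edgeR) and -0.21 for PPRC1 (adjusted p = 0.098, edgeR).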

How the results depend on the processing

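The labels number the replicates alike in each group and do not say whether a number pairs libraries. Libraries of the same number did not deviate together (correlations of -0.02 to 0.06). Such weak correlations do not settle whether they are paired, and the main fit left the numbers out. The replicate block gave 3 factors between WT and NLS Mut, 0 for WT against vector and 1 for NLS Mut against vector. Of the other ribosome biogenesis genes it gave 3, 2 and 1. In the directions of these calls, the shares of all tested genes were 0.547% lower, 0.826% lower and 0.488% higher. Over all genes, in the same order of comparisons and against 94, 104 and 148, the block called 212, 232 and 230 genes, DESeq2 309, 262 and 413, no filter 225, 289 and 240, GC and length offsets 424, 200 and 286, the block with these offsets 489, 242 and 340, and a threshold of 0.10 249, 218 and 280. Only the groups compared gave 315 and 26 in the first 2 comparisons. Without 1 library the totals ranged from 27 to 388, 19 to 1256 and 33 to 1002, with the highest values without vector replicate 1.

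Between the F-78 groups the 2 factors called became 8 with DESeq2, 1 with its size factors and 10 with only these groups. They became 15 with the offsets, with or without the block, and 7 at a threshold of 0.10. The share of all tested genes called lower moved too, from 0.204% to 0.724%, 0.15%, 0.793% and 1.23% (1.48% with the block), in that order. At 0.10, 249 of all tested genes were called. For NLS Mut against vector the 1 factor became 4 with DESeq2, 5 with the offsets, with or without the block, and 2 at 0.10. Over all tested genes the share called higher moved from 0.295% to 1.16% and 1.14% (1.35% with the block). At 0.10, 280 of all tested genes were called. Without 1 library the counts ranged from 0 to 10, 0 to 7 and 0 to 5 in the 3 comparisons. The highest counts came without vector replicate 1. There, 0.932% of all tested genes were called lower between the F-78 groups. For WT against vector 3.68% were lower and 2.65% higher, and for NLS Mut against vector 2.66% were lower and 2.38% higher. Of the other ribosome biogenesis genes, 1 was called between the F-78 groups, against 9 with DESeq2 and 0 with its size factors. There were 3 without a filter, 2 with a filter of 1 CPM and 7 with only these groups. There were 13 with the offsets, 17 with offsets and block and 4 at 0.10. Without a filter 0.279% of all tested genes were called lower, and with the filter of 1 CPM 0.319%. The other shares are those given above. The 2 called for WT against vector became 1 with DESeq2 size factors and 0 with only these groups. Here the share of all tested genes called lower went from 0.343% to 0.311% and 0.0996%. The 0 for NLS Mut against vector became 6 with DESeq2, 1 without a filter and 4 with the offsets. They became 5 with offsets and block and 3 at 0.10. Without a filter 0.204% of all tested genes were called higher, and the other shares are those given above. Without 1 library these counts were 0 to 8, 0 to 13 and 0 to 10, highest without vector replicate 1.

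The median log2 fold change of the factors kept its sign in every alternative. With the offsets it was -0.06 for WT and 0.13 for NLS Mut against vector, and with library size alone -0.12 and 0.05. Without 1 library it was -0.19 to -0.16 between the F-78 groups, -0.11 to -0.07 for WT and 0.04 to 0.11 for NLS Mut against vector, lowest in the last without vector replicate 1. Counts of factors without overlap are given with the share of all tested genes in brackets. Lower with WT than vector were 14 with library size alone (8.96%) and 8 to 23 without 1 library (9.76% to 17.3%). Higher were 0 (4.65%) and 1 to 2 (9.56% to 16.5%) in the same order. Between the F-78 groups, without 1 library, 28 to 34 were lower (13.6% to 16.7%) and 0 to 1 higher (12.4% to 14.5%). Against vector, NLS Mut was lower in 1 factor with the offsets (6.87%) and in 2 to 6 without 1 library (12.6% to 19.3%). It was higher in 14 to 20 without 1 library (13.1% to 19.1%). HSPA5 passed the threshold between the F-78 groups at 0.19 without a filter, 0.20 with only these groups, 0.19 with the block, 0.18 or 0.19 with the offsets with or without the block, and 0.19 at 0.10. Without 1 library it was 0.14 to 0.28, and against vector 3.85 to 3.99 with WT and 3.67 to 3.74 with NLS Mut. Of 1100 values of named genes under alternatives, 987 kept direction and side of the threshold. The 5 that changed sign came from leaving out 1 library, with ranges between the F-78 groups of -0.0302 to 0.248 for RCL1, -0.12 to 0.0458 for NOB1, -0.16 to 0.0085 for WDR74 and -0.40 to 0.0580 for PPAN. The cause of these changes was not tested. With 3 libraries a group and differences mostly under 0.3 on the log2 scale, single factors lie near the limit of the test, and NOP2 is limited by its few reads.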
